A study of Mus musculus with 2 samples.

Results

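The replication-dependent histone genes supply the core and linker histones that package newly copied DNA, and in the mouse they lie in a few tight clusters. The 67 members described here were the protein-coding genes of the GENCODE M21 annotation whose symbol begins with Hist1h, Hist2h, Hist3h or Hist4h, out of 21853 protein-coding genes. They comprise 6 H1, 18 H2A, 18 H2B, 12 H3 and 13 H4 genes. The Hist1 genes fall into a first cluster of 23 members (chr13:21715763-22043676) and a second of 31 members (chr13:23531050-23934851). The Hist2 cluster holds 10 members (chr3:96219865-96270132), the Hist3 cluster 2 members (chr11:58948920-58956830), and Hist4h4 stands alone on chromosome 6. Coordinates are on mm10 (GRCm38), counted from 1.

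The assay was ATAC-seq, which cuts and tags accessible DNA with a transposase, and the cells were common myeloid progenitors, which give rise to granulocytes, macrophages, megakaryocytes and red cells. The 2 libraries form 1 group of primary cells, labelled as C57BL/6J, male, adult and 5 to 6 weeks old, with 50000 cells per library; the labels used here give no treatment and no sorting scheme. Because the donor label is identical for both libraries, they may be repeats on 1 source, and a gap between them measures at least technical spread. Sequencing instruments are named for replicate 1 only. No read counts were used, the depth of each library is unknown, and with 1 group no conditions were compared and no test was made.

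These genes differ from most others in that they are transcribed mainly during DNA replication, usually lack introns, and make messages that end in a conserved stem-loop in place of a poly(A) tail. H2A and H2B genes are often arranged head to head around a shared promoter. Octamer, CCAAT and TATA elements, with a linker-specific element in H1 genes, are known parts of their promoters.

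The sequences below show the promoter layouts on which the results turn: the strongest head-to-head pair, a pair that exists in 2 identical copies, the pair without any open region, the member with the highest signal, an open and a closed H1 gene, and the H4 gene with the lowest signal. They were read from GRCm38.p6 between the transcripts of a pair (plus strand of the chromosome) or over the 200 bases before a transcript (strand of the gene), at least 50 bases away from any coding start. Capitals mark matches on either strand to the CCAAT box (CCAAT), the TATA box (letters TATAAA), the octamer (letters ATTTGCAT), an E2F motif (letters TTTNGCGC) and the H1 box (letters AAACACA).
Hist1h2ah-Hist1h2bk (chr13:22035602-22035837): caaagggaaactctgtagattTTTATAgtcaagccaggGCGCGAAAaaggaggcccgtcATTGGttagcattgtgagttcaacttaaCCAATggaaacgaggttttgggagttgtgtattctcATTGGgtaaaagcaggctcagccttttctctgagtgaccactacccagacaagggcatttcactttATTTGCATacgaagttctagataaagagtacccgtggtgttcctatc
Hist1h2ap-Hist1h2br (chr13:21833525-21833721): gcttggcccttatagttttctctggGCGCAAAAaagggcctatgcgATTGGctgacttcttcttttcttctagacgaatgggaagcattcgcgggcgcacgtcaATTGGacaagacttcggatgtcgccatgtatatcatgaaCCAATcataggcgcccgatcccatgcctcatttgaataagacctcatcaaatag
Hist1h2ba-Hist1h2aa (chr13:23934206-23934412): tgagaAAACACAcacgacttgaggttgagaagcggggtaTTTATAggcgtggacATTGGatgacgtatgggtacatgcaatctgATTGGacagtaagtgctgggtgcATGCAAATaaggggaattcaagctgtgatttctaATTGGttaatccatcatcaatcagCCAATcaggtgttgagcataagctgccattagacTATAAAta
Hist1h2bm (chr13:21721844-21722043): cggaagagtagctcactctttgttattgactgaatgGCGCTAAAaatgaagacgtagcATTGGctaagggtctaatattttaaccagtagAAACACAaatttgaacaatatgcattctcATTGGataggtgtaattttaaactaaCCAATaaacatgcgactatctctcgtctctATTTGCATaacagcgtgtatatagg
Hist1h1c (chr13:23738600-23738799): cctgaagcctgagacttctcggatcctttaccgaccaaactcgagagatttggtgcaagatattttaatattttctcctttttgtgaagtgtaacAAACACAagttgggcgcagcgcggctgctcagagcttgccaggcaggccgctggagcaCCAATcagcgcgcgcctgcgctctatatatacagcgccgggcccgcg
Hist1h1t (chr13:23695614-23695813): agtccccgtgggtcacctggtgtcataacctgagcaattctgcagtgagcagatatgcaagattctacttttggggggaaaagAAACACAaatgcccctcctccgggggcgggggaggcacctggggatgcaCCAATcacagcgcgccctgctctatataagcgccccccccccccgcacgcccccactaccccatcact
Hist1h4a (chr13:23761231-23761430, minus strand): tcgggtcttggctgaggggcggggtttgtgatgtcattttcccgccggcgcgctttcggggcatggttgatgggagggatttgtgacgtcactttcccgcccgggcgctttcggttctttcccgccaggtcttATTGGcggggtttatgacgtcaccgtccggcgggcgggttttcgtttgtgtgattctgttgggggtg

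Nearly all members had open chromatin at their promoters. Deposited peaks that overlapped were joined into 1 region, described by its strongest summit, and a gene was counted when a region of the list supported by both libraries (the conservative list, at a threshold on the irreproducible discovery rate, IDR) came within 1 kb of an annotated start. This held for 63 of 67 members, or 94.0% (exact binomial 95% interval 85.41 to 98.35%, counting error only), beside 60.8% of all protein-coding genes. In the IDR-thresholded list of replicate 1 alone, used below for its values unless another is named, 62 members had a region, beside 56.3% of all genes, and in that of replicate 2 the same number, beside 52.0%. For 62 of 67 members a region lay over an annotated start itself, which was so for 55.4% of all genes.

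The 4 members without a region within 1 kb were Hist1h1d, Hist1h1t, Hist1h2ba and Hist1h2aa. Hist1h1t encodes the testis-specific linker histone, and Hist1h2ba and Hist1h2aa encode testis-specific forms of H2B and H2A that sit head to head 306 bp apart. These 3 testis genes had no region over their coding start in the conservative list either. Hist1h1d, a linker histone gene of dividing somatic cells, differed from them: its annotated start lies 1828 bp before its coding start, and a region of 1441 bp covered the coding start (chr13:23554898-23556338) and had a counterpart in both libraries. Counted from annotated and coding starts together, a choice made after the values were seen, 64 of 67 members had a region. In Hist1h2be, an H2B gene, the annotated start lies 35168 bp from the coding start, near Hist1h1e, and another region of 304 bp covered its coding start (chr13:23585886-23586189).

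Several promoter letters of open genes were also present at the closed testis genes. The interval of the closed pair Hist1h2ba and Hist1h2aa held 4 CCAAT matches, 2 TATA matches, 1 octamer match, 1 H1 box match and no E2F match. The strongest open pair held 3 CCAAT matches, 1 TATA match, 1 octamer match, 1 E2F match and no H1 box match. The window of Hist1h1t held the H1 box and the CCAAT match that the window of Hist1h1c held. A match is a description of the letters and not a site.

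The regions were common but weak. The deposited signal, a peak value whose scale is not stated, was ranked for each gene's strongest region within 1 kb among all genes with such a region. The median member stood at percentile 21.2 in the conservative list (range 0.418 to 63.8), at 14.5 in replicate 1 and at 24.0 in replicate 2. Its median signal was 7.63 for members and 10.45 for all genes with a region. Only 3 members were above percentile 50 in the conservative list. Within the upper 50% of regions by signal, 25 of 67 members, 37.3%, kept a region, beside 43.7% of all protein-coding genes. The members' share was thus above that of all genes in the full list. Among the stronger regions it was slightly lower, and this small difference was not tested.

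**Figure D1:**
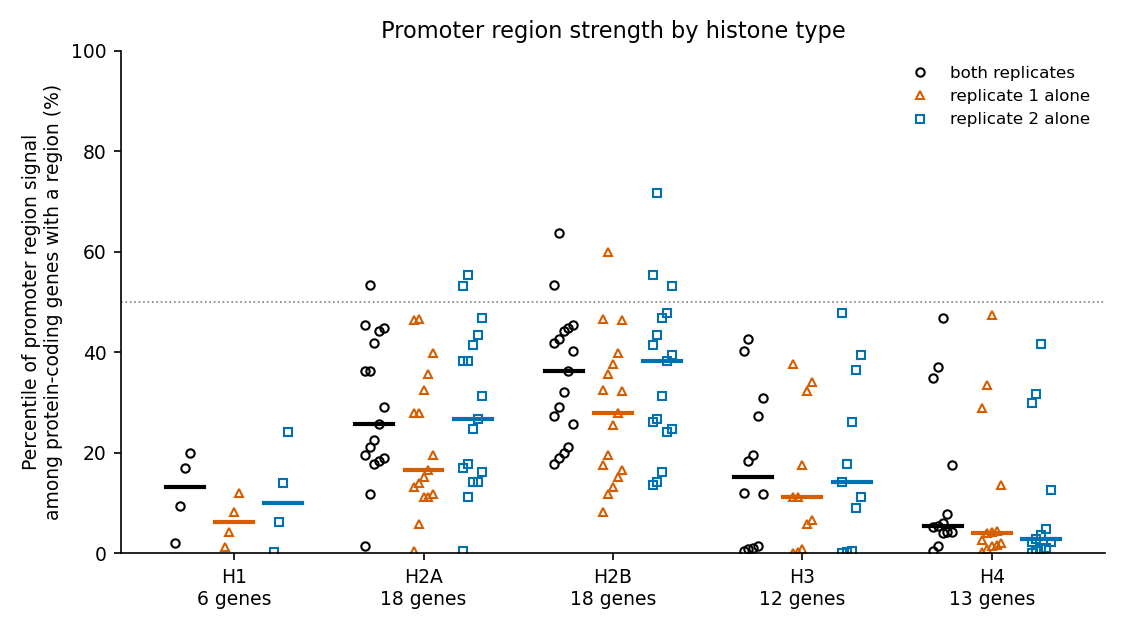
Percentile of the signal of each member's strongest promoter region among protein-coding genes with a region (%), by histone type, in the list of both replicates (circles), replicate 1 alone (triangles) and replicate 2 alone (squares). Bars are medians and the dotted line is percentile 50. H2B genes have the highest median in each list and H4 genes the lowest, and only 3 members are above the line in the list of both replicates.

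Strength was ordered by histone type, with H2B first and H4 last in all 3 lists. In the conservative list the median percentile was 36.2 for H2B, 25.8 for H2A, 15.2 for H3, 13.2 for H1 and 5.39 for H4. In replicate 1 the medians in this order were 28.0, 16.6, 11.1, 6.24 and 4.04, and in replicate 2 they were 38.2, 26.7, 14.2, 10.1 and 2.81. The types overlapped: H2B ranged from 17.7 to 63.8 and H4 from 0.418 to 46.9. Members that share a region share its value, and 15 of the 18 H2A and 15 of the 18 H2B genes did so, so these genes are not independent points. When each member was given only the region over its own coding start or annotated start, the medians were 36.2 for H2B, 22.6 for H2A, 9.72 for H3, 9.415 for H1 and 5.39 for H4. Hist2h3b, an H3 gene, moved most under this rule, from percentile 42.7 with the region of its neighbour Hist2h2bb to 0.414 with its own, which neither library's list held.

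The H1 genes encode linker histones, which bind DNA between nucleosomes. Of 6 H1 genes, 5 had a region over their coding start. Hist1h1e had a signal of 7.47 in the conservative list, 6.26 in replicate 1 and 8.53 in replicate 2, at percentiles 19.9, 8.28 and 24.0. For Hist1h1c these signals were 7.14, 6.70 and 7.49, and for Hist1h1b 6.18, 5.59 and 6.50. None of these 3 genes stood above percentile 24.0 in any of the 3 lists. Hist1h1a was weaker still, with 4.70, 4.68 and 4.41, at percentiles 2.04, 1.17 and 0.295. For Hist1h1d the region over the coding start stood at percentile 6.60 in the conservative list, 5.25 in replicate 1 and 3.999 in replicate 2.

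The regions of 4 H1 genes were wide and ran past the coding end. Hist1h1b, Hist1h1c, Hist1h1d and Hist1h1e lay under regions of 1608, 1546, 1441 and 1996 bp that covered the whole coding sequence and the stem-loop behind it, while the median member region over a start was 460.5 bp wide. Each held 4 or 5 separate summits. In Hist1h1b, Hist1h1c and Hist1h1e the strongest summit lay past the stop codon, 387, 205 and 144 bp after the coding end. In Hist1h1b, for example, the deposited signal was 3.98 at the first summit, at position -101 from the coding start, and 6.18 at the last, behind the gene. This position recurred in both libraries: the strongest summit of Hist1h1b was 1057 bp from the coding start in replicate 1 and 1056 bp in replicate 2, and that of Hist1h1e 800 and 802 bp. Hist1h1d had its strongest summit at position -19 in the conservative list, with 5.738 there and 5.735 at the next summit inside the gene, and at 163 and 99 bp in the libraries alone. Hist1h1a had 1 summit in a region of 724 bp. Some other members had a separate region over the coding end, not joined because the peaks did not overlap. At Hist1h4h this region had a signal of 5.50, beside 5.40 for the region over its coding start.

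**Figure D2:**
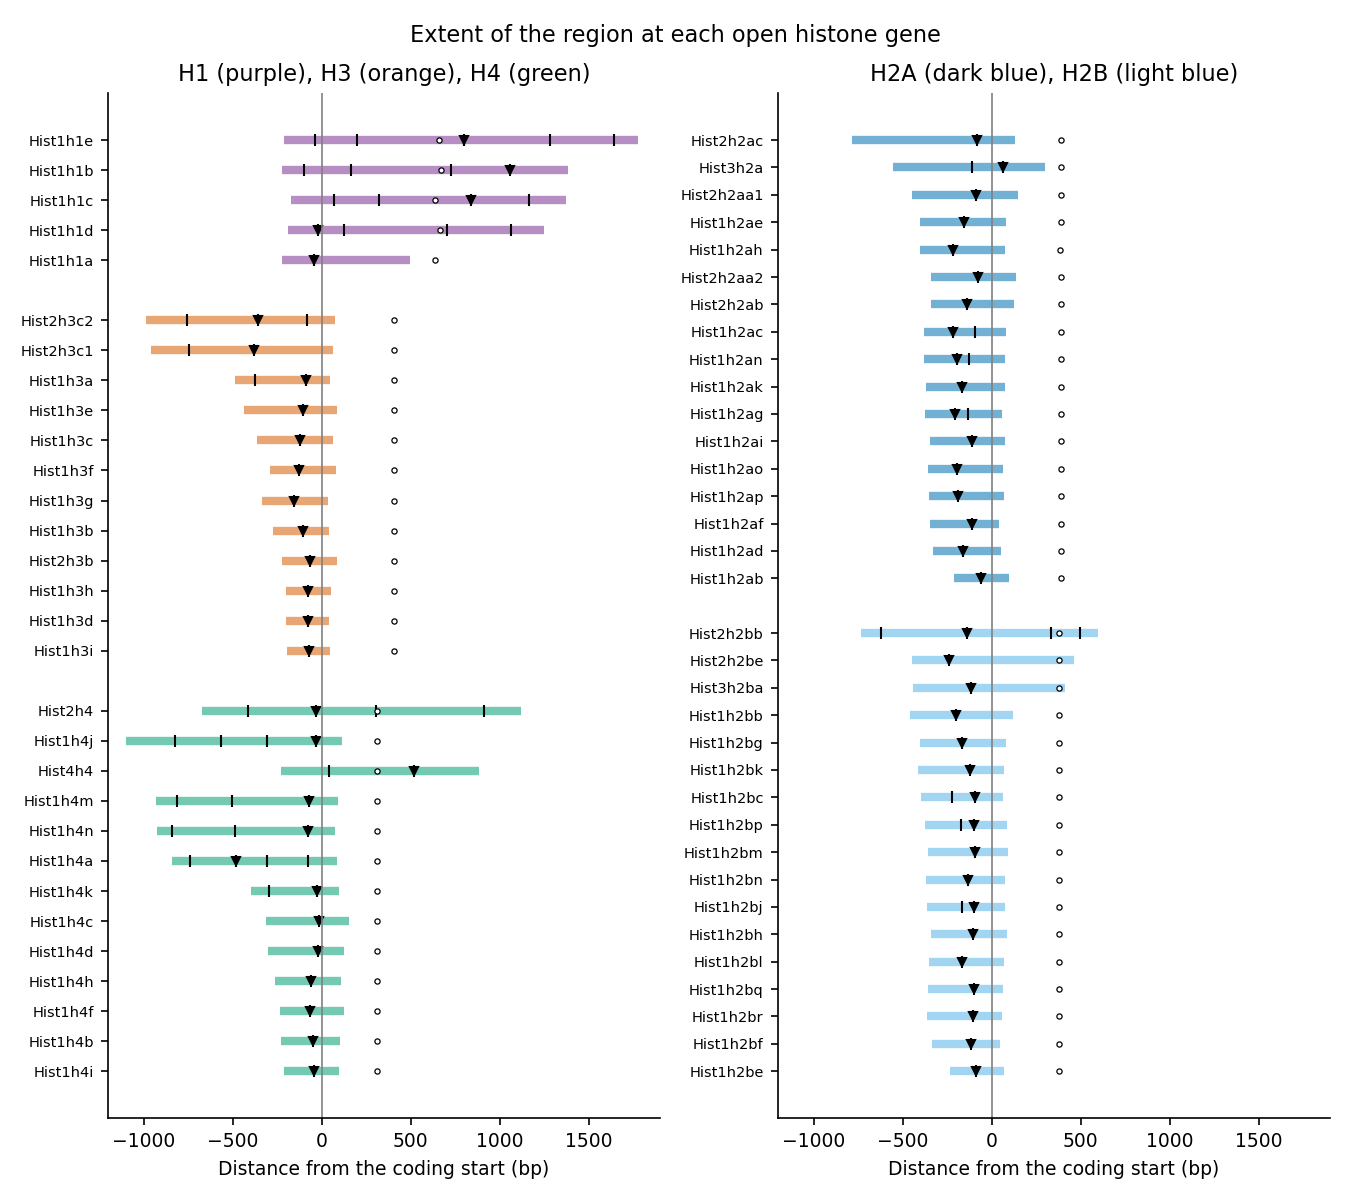
Extent of the region at each of the 64 members with a region over a start, against distance from the coding start (bp) along the gene. Coloured bars are regions of the list of both replicates, black ticks their summits, triangles the strongest summit and open circles the end of the coding sequence. The median bar ends 82 bp after the coding start, while in 9 members (4 H1, 3 H2B and 2 H4 genes) the bar reaches the end of the coding sequence.

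H2A and H2B genes made up nearly all head-to-head pairs. Of 13 head-to-head member pairs with annotated starts at most 1 kb apart, 12 joined an H2A to an H2B gene and 1 joined Hist1h2bh to Hist1h3f. A region spanned both 5′ ends in 11 pairs, in the conservative list and in each library, while Hist1h2ba with Hist1h2aa had none. Of the pair Hist1h2bh and Hist1h3f, with starts 660 bp apart, the Hist1h2bh start lay under a region and the Hist1h3f start under none, the next region beginning 139 bp beyond it. This is 84.6%, beside 86.5% of 733 such protein-coding pairs and 83.3% of the 228 pairs in the distance range of the members. The members' share lies between these values. The median distance within a member pair was 268 bp, and 127 bp over all such pairs.

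Among the pairs, Hist1h2ah with Hist1h2bk had the highest signal, with 10.8 in the conservative list, 9.72 in replicate 1 and 11.2 in replicate 2 (percentiles 53.3, 46.7 and 55.4). Hist1h2an with Hist1h2bp followed, with 10.04, 9.68 and 11.04 (percentiles 45.4, 46.3 and 53.3), then Hist1h2bl with Hist1h2ai at 9.98, 9.17 and 10.2, and Hist1h2ak with Hist1h2bn at 9.92, 8.82 and 10.04. These 4 pairs had the same order among themselves in all 3 lists, although neighbours in it differ by less than a pair differs between libraries. The next pair, Hist1h2ac with Hist1h2bc, had 9.69, 8.58 and 10.5. In replicate 2 it stood above Hist1h2bl with Hist1h2ai and Hist1h2ak with Hist1h2bn. Hist1h2bf with Hist1h2ad was the weakest covered pair in the conservative list, with 7.23, 6.69 and 7.53. The member with the highest value, Hist1h2bm, is an H2B gene with no head-to-head partner: its signals of 11.9, 10.9 and 12.7 stood at percentiles 63.8, 60.0 and 71.8. The weakest open H2A gene, Hist1h2af, also had no partner, with 4.48, 4.19 and 4.58 (percentiles 1.43, 0.492 and 0.418).

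Sharing went beyond pairs. Of the 64 regions within 1 kb of a member start, 31 were near starts of 2 or more members, 48.4% beside 9.77% of all promoter regions, and 41 members had such a region as their strongest. Up to 3 members shared a region. With a window of 500 bp, 19 of 62 regions were shared, 30.6% beside 9.32% of all promoter regions. The strength of a shared region cannot be given to 1 gene. Member regions were also narrow, with a median width of 453.5 bp against 757 bp for all promoter regions.

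The summit usually lay just before the coding start. Of 64 members with a region over a start, 56 had the strongest summit in the 250 bp before the coding start, and 54 of 62 did so in each library. The median position relative to the coding start was -157 bp in H2A genes, -114 bp in H2B genes, -107.5 bp in H3 genes and -44 bp in H4 genes. In the pair Hist1h2bl and Hist1h2ai, which share 1 summit, it was at -168 bp from the H2B and at -111 bp from the H2A coding start.

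The H3 genes, which encode the replication-coupled forms of H3, had the lowest median width of the 5 types, 373.5 bp, and some of the lowest signals. Hist1h3i had 3.90 in the conservative list, 3.69 in replicate 1 and 3.93 in replicate 2, at percentiles 0.433, 0.118 and 0.0749. Hist1h3h had 4.14 and was the fifth member, beside the 4 named above, without a region in the IDR-thresholded list of either library; the longer pseudoreplicated list of each library held it. Hist1h3d (4.46, 4.43 and 4.37, at percentiles 1.38, 0.817 and 0.269) was similar. Hist1h3a stood at percentile 1.04 in the conservative list, and in replicate 1 the region of its neighbour Hist1h4a was the strongest within 1 kb. Ranked by the region over their own coding start, the highest H3 genes were Hist1h3f at percentiles 35.5, 27.5 and 33.4 and Hist1h3e at 30.9, 34.1 and 36.4, in an order that turned in both libraries.

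The H4 genes differed widely in rank. Of 13 genes, Hist2h4, Hist1h4c, Hist1h4j and Hist1h4d were above percentile 15 in the conservative list and the other 9 were below percentile 8. Hist2h4 had 10.17 in the conservative list, 9.78 in replicate 1 and 10.05 in replicate 2 (percentiles 46.9, 47.5 and 41.7). Hist1h4c had 9.21, 8.66 and 9.17, and Hist1h4j 9.01, 8.30 and 9.01. The lowest, Hist1h4a, had 3.89, 3.94 and 4.01 (percentiles 0.418, 0.2602 and 0.101). Its region of 929 bp had the strongest summit at -481 bp from the coding start, towards Hist1h3a, and at -485 and -315 bp in the libraries. The groups of 4 and 9 were formed from these values, so their separation is no result. Hist1h4d stood at percentile 17.5 in the conservative list, 13.6 in replicate 1 and 12.6 in replicate 2. It was nearer to Hist1h4f (7.83, 4.04 and 4.77) than to Hist1h4j (34.8, 28.9 and 29.8) in each list. Regions over 800 bp were found at 6 of the 13 H4 genes, 4 of the 5 open H1 genes, 3 H2B, 2 H2A and 2 H3 genes. The median width of all promoter regions was 757 bp, close to this cut. At Hist4h4 the region of 1114 bp covered the coding sequence, with a signal of 5.61 at the summit 208 bp past the coding end and 5.36 at the one 38 bp after the coding start. The order of these 2 summits differed between the libraries: the strongest was 33 bp from the coding start in replicate 1 and 516 bp in replicate 2.

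The 2 libraries ranked the members alike. The IDR-thresholded list of each library held the same 62 members, and 5 were in neither. Over these 62 genes the percentiles had a Pearson r of 0.954 and a Spearman rho of 0.955, and over all 11169 genes present in both lists rho was 0.917. These values describe genes that share clusters, regions and libraries. Members stood higher in replicate 2 in 49 of 62 cases, by a median of 3.14 percentile points (from -11.8 to 15.8), while over all genes the median difference was -1.68. The size of this difference depended on the lists: it was 5.62 points, with 53 of 63 members higher in replicate 2, in the pseudoreplicated lists, and 16.4 points, with 34 of 35 higher, when equal numbers of the strongest regions were taken from each library. Taking equal numbers removed only the weakest regions of replicate 1, which lowers the percentiles of the regions left in its list. The difference over all genes was taken from the uncut IDR-thresholded lists only. By type, 16 of 17 H2A and 16 of 17 H2B genes stood higher in replicate 2, by a median of 6.50 and 8.71 points, and 5 of 13 H4 genes did, with a median difference of -0.369. Most H2A and H2B genes shared a region, so their 2 counts rest in part on the same regions. How many of all genes stood higher in replicate 2 is not given here. The region of Hist1h1e had the largest difference towards replicate 2, at percentile 8.28 in replicate 1 and 24.0 in replicate 2. Hist1h2be takes these values only through its annotated start, 35168 bp from its coding start. The region over its own coding start stood at 9.81 in replicate 1 and 12.45 in replicate 2. Hist3h2ba had the largest difference in the other direction, at 25.5 and 13.7. Depth may differ between the libraries; its part in these differences was not tested.

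**Figure D3:**
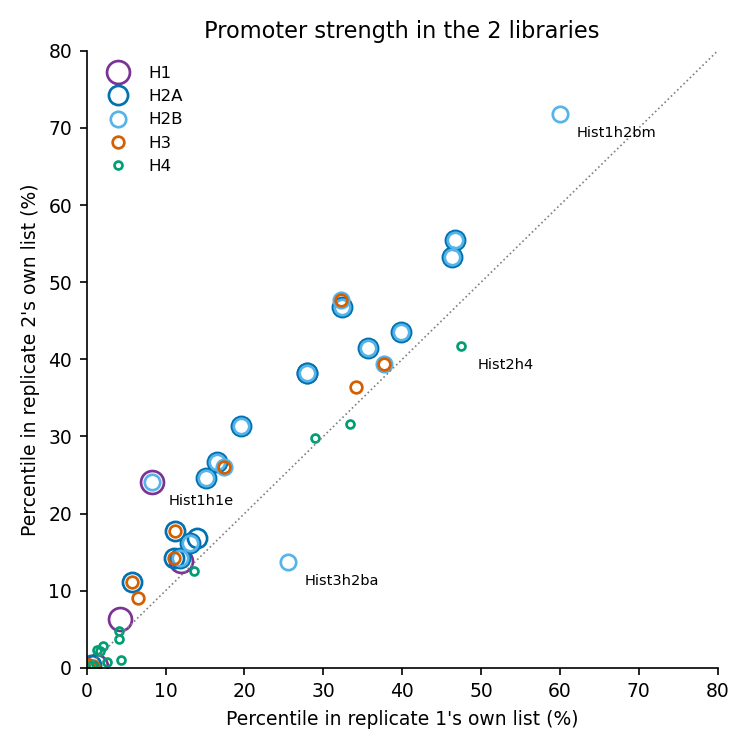
Percentile of each member's strongest promoter region in the list of replicate 1 alone (x, %) and of replicate 2 alone (y, %), coloured and sized by histone type so that genes that share a region appear as nested rings. The dotted line is equality. Most H2A and H2B genes lie above it, Hist3h2ba and Hist2h4 below it.

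Some members are near-identical copies of each other. The 600 bp from 150 bp before the coding start were at least 95% identical to that of another member for 10 genes: Hist2h3c1 and Hist2h3c2, Hist2h2aa1 and Hist2h2aa2, Hist1h2bq and Hist1h2br, Hist1h2ao and Hist1h2ap, and Hist1h4m and Hist1h4n. For Hist1h2ao, Hist1h2ap, Hist1h2bq and Hist1h2br every word of 50 bases within 1 kb of the coding start occurred more than once in the genome. All 10 had a region, with a median percentile of 18.4, while the 57 others had a region in 53 cases with a median percentile of 25.8. How reads that match several places were handled is not given in the sources used here, so the values of these 10 genes are uncertain. Repeated words of 50 bases within 1 kb were not confined to them: among the 57 others the median share was 14.96%. By type, over all members, the median share was 3.304% in H1 and 29.99% in H2A genes. It was 29.48% in H2B, 22.11% in H3 and 10.04% in H4 genes. These genes share the uncertainty in part, and its effect on region widths and on the order of types was not tested.

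The copies in the first Hist1 cluster belong to an inverted repeat. Its arms of 19.8 kb (chr13:21792574-21812409 and chr13:21831532-21851277) were 98.7% identical and 19.1 kb apart. The left arm had 6 regions and the right arm 5, and 5 of the 6 had a region at the mirrored place. The interval between Hist1h2ap and Hist1h2br printed above and that between Hist1h2bq and Hist1h2ao were identical over 197 bases, with signals of 7.36 and 8.44 in the conservative list, 6.82 and 7.48 in replicate 1, and 7.75 and 9.13 in replicate 2. The H4 copies Hist1h4m and Hist1h4n, 99.9% identical over the region, had 5.26 and 5.52 in the conservative list, 4.89 and 5.63 in replicate 1, and 5.58 and 5.05 in replicate 2. The signal of a left region was 0.953 to 1.15 times that of its mirror image. The order of the H4 copies turned between the libraries and that of the H2A and H2B copies did not.

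The repeat also holds the regions with the highest deposited signal between genes of that cluster. No gene is annotated at chr13:21796970-21797757, with a signal of 15.7 in the conservative list, 14.5 in replicate 1 and 13.1 in replicate 2, or at its mirror image chr13:21846213-21846930, with 14.3, 12.99 and 12.9. The same held for chr13:21803094-21803429, with 12.5, 10.4 and 12.6, and its mirror image chr13:21840512-21840847, with 12.9, 11.4 and 11.8. Both left regions were 100% identical to the mirrored sequence, so their signals and ranks carry the same uncertainty about reads that match several places. These 4 stood between percentiles 85.1 and 96.0 of all 67395 regions of the conservative list, while the regions at member starts had a median percentile of 23.35 there.

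**Figure D4:**
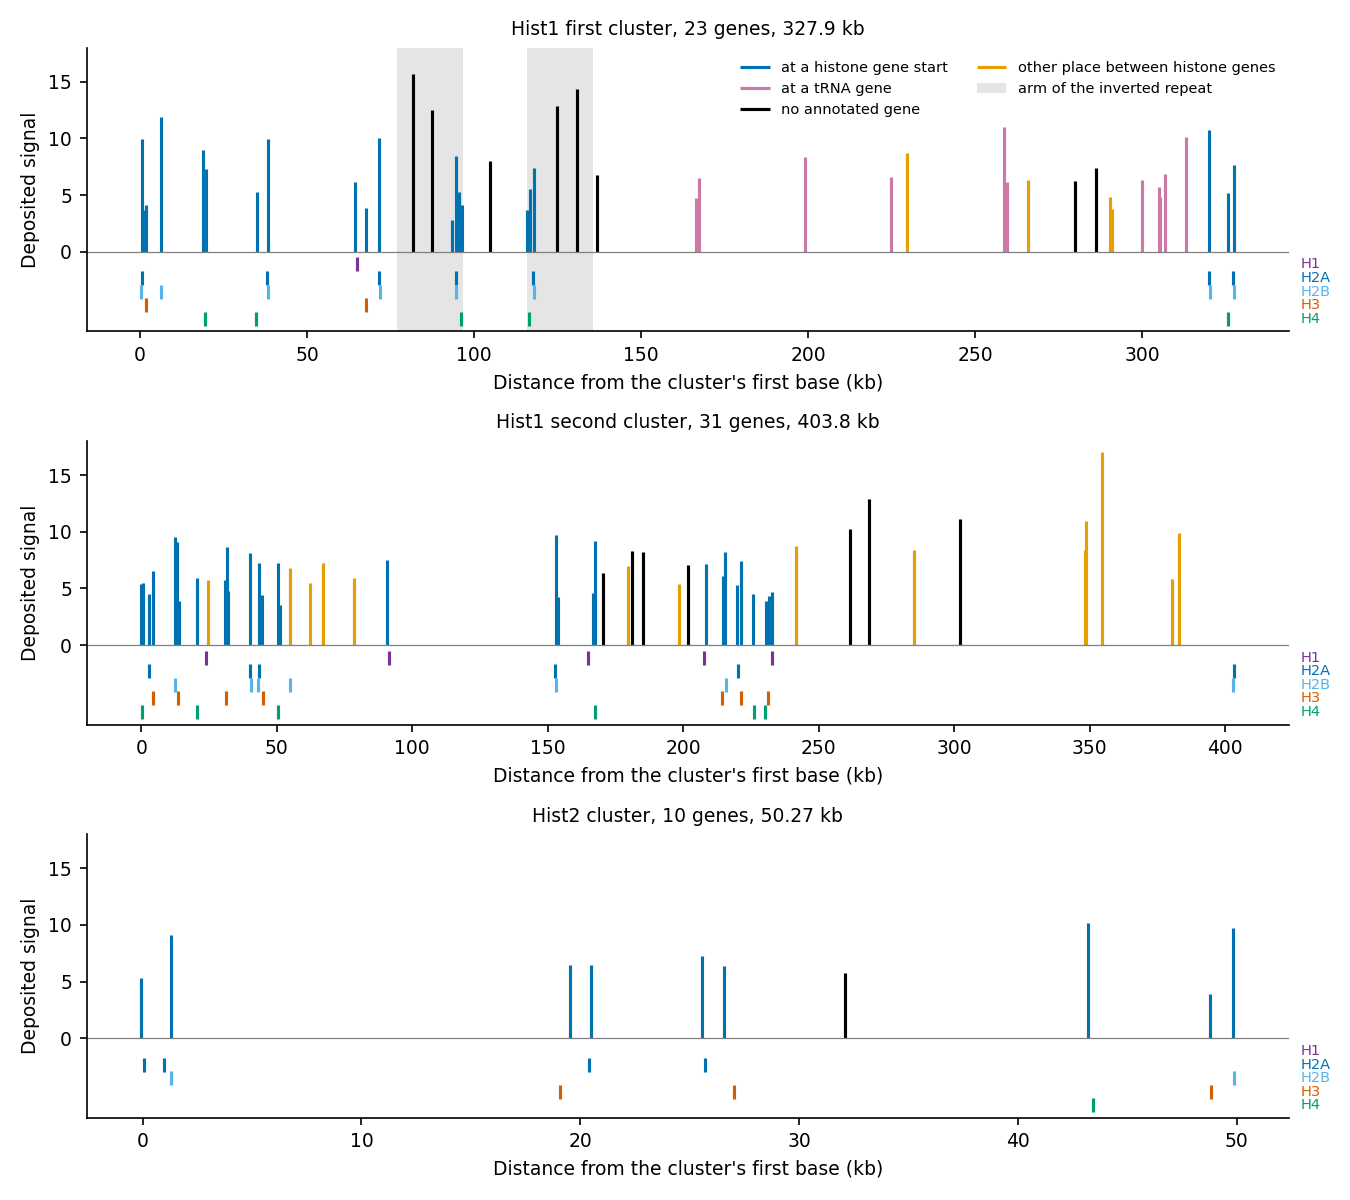
Deposited signal (scale not stated) of the regions in the Hist1 first, Hist1 second and Hist2 clusters against distance from the first base of the cluster (kb), for regions at histone gene starts, at tRNA genes, at places with no annotated gene and at other places. Ticks under each axis are coding starts by histone type and grey bands the arms of the inverted repeat. Regions with no annotated gene reach 15.7 in the first cluster, above all its histone gene regions, and the right part of the first cluster holds tRNA gene regions.

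In all, 45 regions of the conservative list lay within the clusters, formed by joining members at most 300 kb apart, and over 1 kb from every member start, 23 in the first Hist1 cluster, 21 in the second and 1 in Hist2. The count was 15 when members were joined over at most 100 kb, and 22 in the list of replicate 2 alone and 31 in that of replicate 1. Of the 45, 16 had no annotated gene, 11 were at tRNA genes, 6 at starts and 6 inside other protein-coding genes, 3 inside the long Hist1h2be record, 2 over the coding starts of Hist1h1d and Hist1h2be, and 1 at a noncoding start. Both own lists held 21 of the 45, replicate 1 alone 8, replicate 2 alone 2, and neither 14. The conservative list has 67395 regions in all, and the own lists have 47535 in replicate 1 and 37620 in replicate 2. Like counts over all regions, and the density of regions over the genome, are not given here. The highest signal of the 45, 17.1, lay inside Slc17a1, a phosphate transporter gene (chr13:23885582-23885902). Regions at the start of another gene were found at Zfp184 (8.74), a zinc finger gene, at Hfe (6.95), the gene of hereditary iron overload, and at Slc17a4 (9.90) in both libraries, and at Pom121l2 and Prss16 in neither library alone.

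The first Hist1 cluster also holds tRNA genes, which RNA polymerase III transcribes, 31 of them in the RefSeq annotation. A region came within 500 bp of 10 of them, 32.3%, beside 48.6% of all 403 tRNA genes on the chromosomes, and no test was made of this difference. The highest signals were 11.04 at a tRNA-Met gene (chr13:21973941-21974709) and 10.1 at a tRNA-Ile gene (chr13:22028675-22029060), both in both libraries.

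The letters of known promoter elements were more frequent in members than in all genes, and differed by type. In the 300 bp around the gene's 5′ end (250 before, 50 after), searched on both strands, 83.6% of members and 39.0% of all protein-coding genes had CCAAT, and 55.2% and 12.7% had TATAAA. The octamer ATTTGCAT was in 15 members, 7 H2A and 8 H2B genes, or 22.4% beside 1.57% of all genes. TTTNGCGC was in 7 H2A and 7 H2B genes, 20.9% beside 1.67%. The windows of most head-to-head partners overlap, so 1 match can count for both genes. Between Hist1h2ah and Hist1h2bk, 1 octamer match and 1 TTTNGCGC match lay in the windows of both. The annotated 5′ end lies 35168 bp before the coding start in Hist1h2be, 1828 bp in Hist1h1d and 433 bp in Hist1h3f. For these genes the counts describe that place and not the sequence just before the coding start. AAACACA was in 4 of 6 H1 genes and 5 other members, 13.4% beside 6.40%. CCAAT was found in all 36 H2A and H2B genes and in 4 of 13 H4 genes, whereas GGGCGG was in 10 of 13 H4 genes and 41.8% of members, beside 43.0% of all genes and 58.4% of genes with a region. The median GC content of this window, which is not that of the printed sequences, was 45.3% in members and 59.0% in all genes with a region.

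The stem-loop that ends histone messages was found by the letters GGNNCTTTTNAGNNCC within 200 bases after the coding sequence of 63 of 67 members. The form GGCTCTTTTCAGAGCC occurred in 41, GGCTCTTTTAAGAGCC in 9 and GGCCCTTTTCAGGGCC in 8. All 3 testis genes had a match. The region over a gene's own start covered 7 stem-loops: those of Hist1h1b, Hist1h1c, Hist1h1d, Hist1h1e, Hist2h4, Hist4h4 and Hist2h2bb. Separate regions lay over further stem-loops, such as those of Hist1h4j (chr13:21735343-21735684, signal 7.32) and Hist1h4h (chr13:23531374-23531900, signal 5.50).

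Genes that act on histone genes had regions with a higher median rank than the members. All 17 matched genes of 18 listed factors for histone transcription and message processing had a region, beside 60.8% of all protein-coding genes. The median percentile of these factors was 50 (15.6 to 98.2), which is the middle of all genes with a region. Npat, the coactivator of the histone locus body, stood at percentile 69.2 in the conservative list, 67.85 in replicate 1 and 71.2 in replicate 2. Hinfp, a transcription factor for H4 genes, stood at 98.2, 96.9 and 99.2, while the H4 genes had the lowest median of the 5 types. Slbp, which binds the stem-loop, stood at 41.2, 42.9 and 31.95. All 11 listed replication-independent histone genes had a region, with a median percentile of 28.2, from 2.47 at H2afy2 to 90.0 at Cenpa, the centromeric H3. All 11 histone chaperone genes had a region, with a median of 46.55, among them Asf1b at 71.9. Regions within 1 kb were found at 12 of 12 listed marker genes of common myeloid progenitors, 0 of 5 of mature neutrophils, 0 of 4 of T cells, 0 of 4 of other tissues and 1 of 4 of B cells (Pax5, at percentiles 84.1, 84.5 and 85.5). The 12 progenitor markers stood at a median percentile of 23.5 in the conservative list (0.0564 to 55.5), all below Pax5. Of these 12, the lists of the libraries alone held 10 and 9, and neither held Csf1r or Mpo. Purity was not tested, since peaks carry no cell numbers.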

How the data were processed

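ATAC-seq of 2 libraries of 1 group was used, as 8 deposited peak lists on mm10. Per the deposited notes, the lists of a replicate came from its own filtered alignments and those of the series from both. Aligner, peak caller, read length and the handling of multiply matching reads: not given in the sources used here. Each peak has a signal deposited by the authors, on a scale that no source names, and served only to rank and describe regions within a list. Overlapping peaks on 19 autosomes, X and Y were merged, and regions within 1 kb of 54361 annotated starts were assigned to genes (Python 3.11.15, pandas 2.3.3, pysam 0.24.0). Any member could be named; those without a region, the 10 highest and the 5 lowest always were. In 11 members the gene model holds no more than the coding sequence. Coding starts came from the transcript with the fewest coding exons. The region merging, the search for repeated words and that for the inverted repeat were tested on simulated data. The members and lists were chosen with earlier results of these data known. Members at most 300 kb apart formed a cluster. Ranked and archived lists were not used.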

Additional observations from a re-analysis of the deposited data

How the results depend on the processing

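The share of members with a promoter region was between 92.5% and 97.01% under 13 of 14 alternatives, and 37.3% with the upper 50% of regions by signal. Left to 1 library, the share was 92.5% in either. The median percentile of all members lay between 14.5 and 25.8 under all 6 alternatives tried. By type, the medians from 1 library lay between 6.24 and 10.1 for H1, 16.6 and 26.7 for H2A, 28.0 and 38.2 for H2B, 11.1 and 14.2 for H3, and 2.81 and 4.04 for H4; with the region over the coding start, chosen after the values were seen, they were 9.415 for H1 and 9.72 for H3, which turned the order of no pair of types. Shared regions numbered 19 with a window of 500 bp, in place of 31. Regions between genes numbered 15 with cluster gaps of at most 100 kb, and 22 and 31 in the libraries alone. With equal numbers of the strongest regions from each library, 35 members were in both, in place of 62; this alternative removes the weakest regions of replicate 1's longer list. The members' median percentile difference, replicate 2 minus replicate 1, was then 16.4, and 5.62 with the pseudoreplicated lists, in place of 3.14. The median region width was 452 and 458 bp in the libraries alone, in place of 460.5 bp. No paired analysis was possible because there is 1 group. Read depth is unknown, so a missing region shows only that none passed the authors' threshold.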
